A study of Homo sapiens with 6 samples.

Results

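The protein kinases that phosphorylate SR proteins were followed in Huh-7 cells exposed to amiloride. They comprised CLK1, CLK2, CLK3, CLK4, SRPK1, SRPK2, DYRK1A, DYRK1B, PRPF4B (named PRP4K in current RefSeq) and TOP1, which are 10 of the 19488 genes on the array. Their 275 probe sets, of 1408285 in all, were those to which the array annotation gives one of these symbols and no other. The Huh-7 line derives from a human hepatocellular carcinoma. Amiloride, a potassium-sparing diuretic, inhibits sodium channels of epithelia and sodium-proton exchange. Cells were kept in 0.5 mM amiloride for 24 hours (3 arrays) or left untreated (3 arrays, called control here), and each array is labelled as a biological replicate. No genotype, transgene or other agent set the groups apart. The amiloride stock was dissolved in DMSO, and the sources used here do not say whether control cultures received DMSO. Total RNA was read on Human Exon 1.0 ST arrays, on which many probe sets of a few probes each cover the exons of a gene. Each array measured the RNA of a whole culture, so more kinase RNA per cell and more cells that carry it cannot be told apart.

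SR proteins are splicing factors with a domain rich in arginine and serine repeats, which recruit the splicing machinery to exons. Phosphorylation of this domain governs where they are in the cell and what they bind. SRPKs act mainly in the cytoplasm and mark SR proteins for import into the nucleus by transportin-SR, whereas CLKs act in the nucleus and release them from nuclear speckles. The study examined the phosphorylation of SR proteins under amiloride, and the question here was whether the RNA of the kinases, or the use of their exons, differed between amiloride and control arrays.

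The deposited intensities were not on one scale. Replicates 1, 2 and 3 had median intensities of 12, 4.71 and 6.26 under amiloride, against 13.1, 5.08 and 6.42 in control, and brightness thus went with the replicate number. Control replicate 1 stood apart in its pattern. Its gene levels correlated at 0.643 to 0.723 with the other arrays (Pearson's r across genes, a description only since genes do not vary independently), whereas the other 5 arrays correlated at 0.855 to 0.95 with each other. Of 12 hepatocyte and hepatoma markers 10 could be measured, and all 10 lay above the 90th percentile of gene levels on every array. Of 9 markers of blood, endothelial, muscle and endocrine cells 7 could be measured, and 0 did so. Of these 7, 4 lay below the 50th percentile on every array, whereas INS lay at percentiles 84.5 to 96.5.

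A gene's level is the median log2 intensity over its kept probe sets, with intensities under 1 set to 1. Probe sets were kept if their mean log2 value over the 6 arrays reached 2.796, the median value over the whole array, which 241 of the 275 passed. The number per gene lay between 12 for CLK2 and 37 for PRPF4B. Differences are amiloride minus control, tested with limma across 17018 genes with Benjamini-Hochberg adjustment. In this fit all genes share a standard error of 0.69, which holds the brightness of the arrays as well. A second fit took the replicate number as a block. Where arrays were left out, gene levels kept the probe sets chosen on all 6 arrays.

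No kinase of the group passed the threshold (0 of 10, against 0.0118% of all genes), and each had an adjusted p close to 1 in limma. Yet 9 of the 10 differences lay above the median of all genes, 0.07, where by construction 50% of genes lie, and the median of the 10 was 0.90. Without amiloride replicate 1 it was 0.21, where that of all genes was -0.38. The highest differences were those of PRPF4B, CLK4 and CLK1, followed by CLK3, DYRK1A, SRPK2, TOP1, CLK2 and SRPK1, and DYRK1B alone was on the negative side. Neighbours in this order lay within 1 standard error of each other. A difference that misses the threshold is not shown to be absent, since 3 arrays against 3 at this standard error leave much room.

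**Figure D1:**
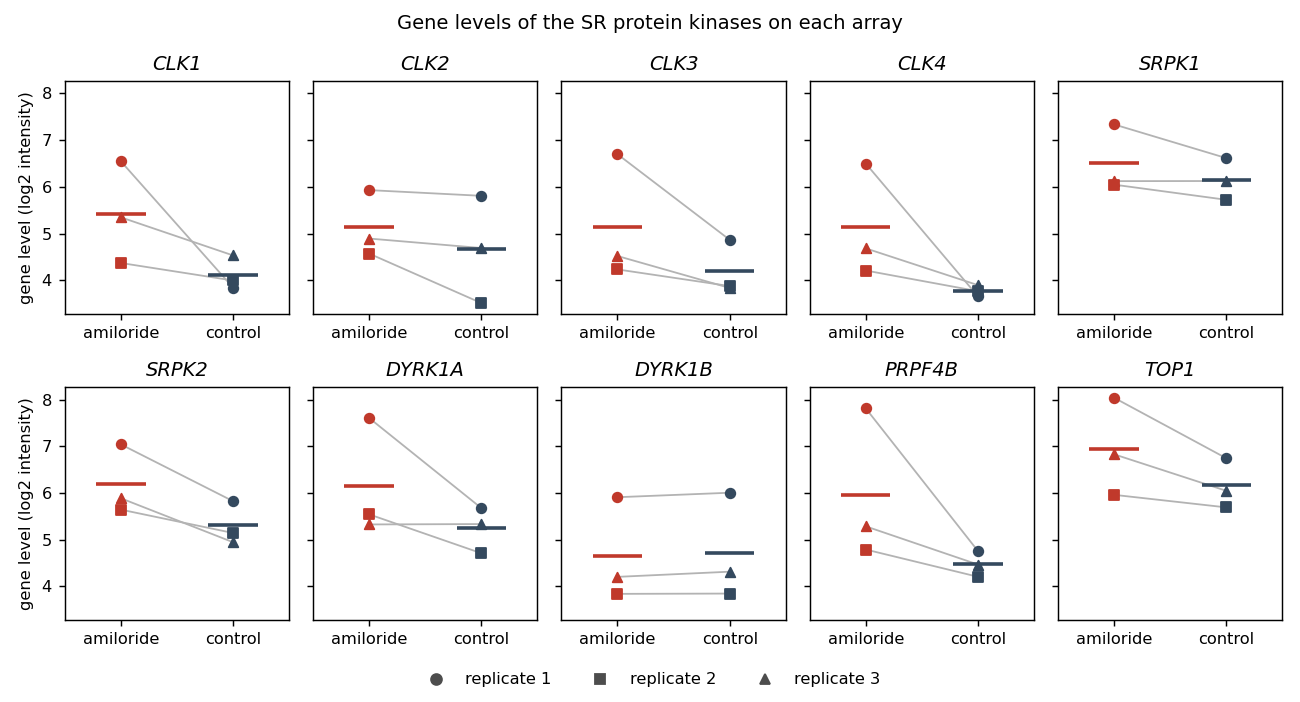
Gene level of each of the 10 kinases (log2 intensity, vertical axis) on the 3 amiloride arrays (left, red) and the 3 control arrays (right, blue). Symbols mark the replicate number, grey lines join arrays of the same number, and short bars are group means. CLK4 and PRPF4B are the members whose groups do not overlap, and amiloride replicate 1 is the highest amiloride array of every gene.

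CLK1 and CLK4, close paralogues among the nuclear CLKs, behaved alike, as did other pairs of members. Less each array's median gene level, CLK1 and CLK4 correlated at 0.961 over 6 arrays (Pearson's r), and CLK3 and PRPF4B at 0.969. CLK2 correlated at 0.155 with CLK1 and at 0.093 with CLK4. CLK1 had gene levels of 6.55, 4.37 and 5.35 on amiloride replicates 1, 2 and 3, against 3.84, 3.99 and 4.53 on the control replicates. Only amiloride replicate 2 lay within the control range. The difference was 1.30 (2.46-fold on this scale), and within replicates 1, 2 and 3 it was 2.71, 0.38 and 0.82. CLK4 had 6.50, 4.21 and 4.68 on the amiloride arrays, against 3.65, 3.76 and 3.89 on the control arrays, with no overlap. Its difference was 1.36, of which replicates 1, 2 and 3 gave 2.84, 0.44 and 0.79. In both genes the largest part came from replicate 1. There control replicate 1, the array of highest median intensity, lay 1.38 (CLK1) and 1.57 (CLK4) below its own median gene level. Control replicates 2 and 3 lay within 0.39 of theirs. With replicates 2 and 3 alone, an alternative chosen after seeing the data, the differences were 0.60 for CLK1 and 0.62 for CLK4 (limma, adjusted p = 0.668 and 0.636). When the dim probe sets were chosen afresh on those 4 arrays, that of CLK1 was 0.34 (adjusted p = 0.961).

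The other CLKs differed less. CLK3 had gene levels of 6.70, 4.23 and 4.52 on the amiloride arrays, against 4.86, 3.87 and 3.83 on the control arrays, and exceeded its control in each of the same-number pairs, by 1.83, 0.36 and 0.68. The groups overlapped only through control replicate 1, and the difference of 0.96 was 0.18 without amiloride replicate 1. CLK2 had 5.93, 4.57 and 4.89 on the amiloride arrays, against 5.81, 3.51 and 4.69 on the control arrays. Its difference of 0.46 came mainly from the second pair, where the amiloride array was higher by 1.06, against 0.12 and 0.20 in the others. Without control replicate 2 the difference of CLK2 was -0.12, and without control replicate 1 it was 1.03.

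Of the SRPKs, SRPK2 differed more than SRPK1. SRPK2 had gene levels of 7.04, 5.64 and 5.89 on the amiloride arrays, against 5.82, 5.14 and 4.95 on the control arrays, a difference of 0.89. It was higher by 1.22, 0.50 and 0.94 within the pairs, more evenly than in the genes above, and with replicates 2 and 3 alone it was 0.72. With the replicate block SRPK2 had the smallest p of the group (limma, unadjusted p = 0.0104, adjusted p = 0.191). SRPK1 had 7.34, 6.05 and 6.12 on the amiloride arrays, against 6.61, 5.72 and 6.12 on the control arrays. The third pair was level, and the difference of 0.35 turned to -0.070 without amiloride replicate 1.

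DYRK1A, a kinase encoded in the Down syndrome region that phosphorylates several SR proteins, had gene levels of 7.61, 5.54 and 5.33 on the amiloride arrays, against 5.68, 4.71 and 5.33 on the control arrays. Amiloride was higher by 1.93 and 0.83 in the first and second pairs, and the third pair was level. The difference was 0.92, and 0.19 without amiloride replicate 1. Its paralogue DYRK1B, linked to cell quiescence, had 5.91, 3.84 and 4.20 on the amiloride arrays, against 6.01, 3.85 and 4.31 on the control arrays. DYRK1B was the only member lower in all 3 pairs (1 of 10, against 11.6% of all genes), by at most 0.11, and its difference of -0.07 changed sign with the arrays used, between -0.70 and 0.57 when 1 array was left out.

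PRPF4B, a kinase that binds the spliceosome and phosphorylates its components, had the largest difference of the group. It had gene levels of 7.81, 4.79 and 5.29 on the amiloride arrays, against 4.75, 4.20 and 4.47 on the control arrays, without overlap. The difference was 1.49 (2.8-fold), at percentile 99.1 of all genes, with 3.06, 0.58 and 0.82 in the pairs. As with CLK1 and CLK4, replicate 1 carried most of it, and the values were 0.56 without amiloride replicate 1, where the median of all genes was -0.38, and 0.70 with replicates 2 and 3 alone. TOP1, the topoisomerase that relaxes supercoiled DNA and is also able to phosphorylate SR proteins, had 8.04, 5.96 and 6.83 on the amiloride arrays, against 6.74, 5.69 and 6.05 on the control arrays. The amiloride array of TOP1 was higher in each pair, by 1.30, 0.27 and 0.78, a difference of 0.78 that was 0.23 without amiloride replicate 1.

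Counted together, 7 of the 10 kinases were higher in all 3 pairs (CLK1, CLK2, CLK3, CLK4, SRPK2, PRPF4B and TOP1), against 26.4% of all genes. After subtraction of each array's median gene level 7 were as well, against 22.9%, with SRPK1 in place of CLK2. That exchange rests on near ties, far under the standard error of 0.69. The third pair of SRPK1 was then at 0.0049, the first of CLK2 at -0.026 and the third of DYRK1A at -0.00048. CLK4 and PRPF4B were higher without overlap between groups (2 of 10, against 6.68%), and 0 were lower without overlap (0.188%). Those without overlap were 8 after quantile normalization of the arrays (16.6% of all genes) and 9 after median centring (18.5%), where DYRK1B still overlapped in both and SRPK1 after quantile normalization. They were 5 without amiloride replicate 2 (15.1%) and 4 without control replicate 1 (20.9%). At an unadjusted p under 0.05, the same 2 were higher in limma (1.63% of all genes) and 0 were lower (0.0705%). With the replicate block 7 were (CLK1, CLK3, CLK4, SRPK2, DYRK1A, PRPF4B and TOP1, against 13.6%) and 0 were lower (1.6%), with standard errors of 0.26 to 0.47. Their adjusted p lay between 0.191 and 0.306, and 0 of 10 members passed, as did 0% of all genes. These shares describe the group beside all genes and are no test of it, since genes of one array share its brightness.

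Taking off the median gene level of an array removes a uniform shift in brightness, but not a pattern such as that of control replicate 1. Relative to that median, SRPK2 had nearly equal amiloride arrays. It lay 1.67, 1.74 and 1.75 above that median on the amiloride arrays, against 0.61, 1.32 and 0.80 on the control arrays. TOP1 lay 2.67, 2.06 and 2.69 above it on the amiloride arrays, against 1.52, 1.87 and 1.90 on the control arrays. On this relative scale 6 of 10 members did not overlap (against 11.9% of all genes), namely CLK1, CLK3, CLK4, SRPK2, PRPF4B and TOP1. PRPF4B was at 2.44, 0.89 and 1.15 on the amiloride arrays, against -0.46, 0.38 and 0.32 on the control arrays, so amiloride replicate 1 stayed far from the others. SRPK1 was at 1.97, 2.15 and 1.99 on the amiloride arrays, against 1.40, 1.90 and 1.98 on the control arrays, where only control replicate 1 stood off. DYRK1B, at 0.54, -0.06 and 0.07 on the amiloride arrays, against 0.79, 0.02 and 0.17 on the control arrays, remained the member with the amiloride array below its control in every pair.

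**Figure D2:**
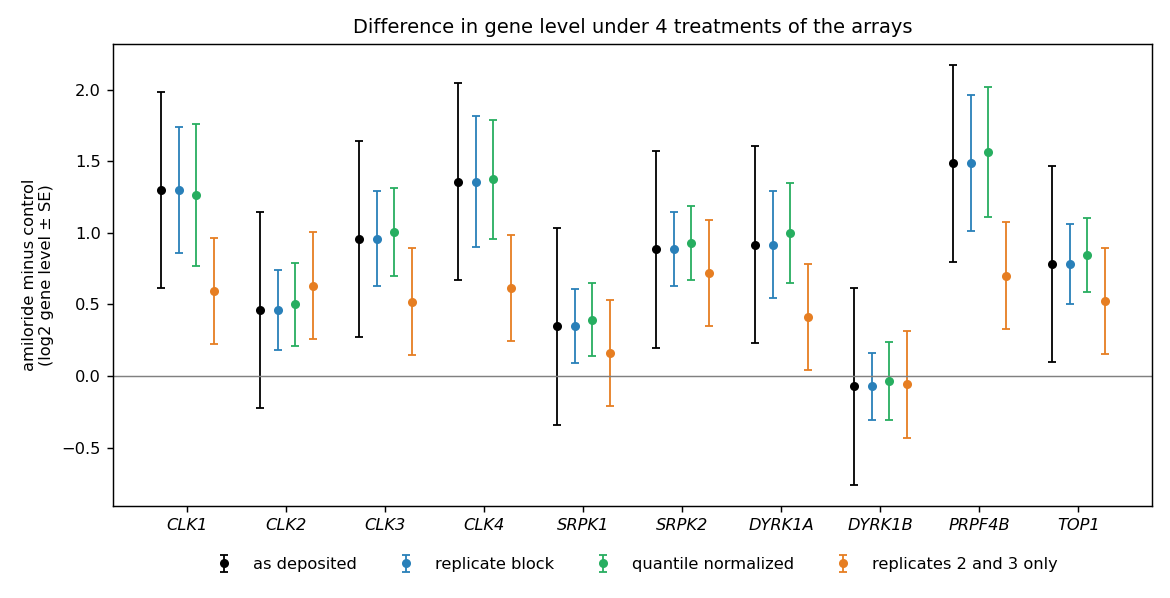
Difference in gene level, amiloride minus control (log2, vertical axis), with limma's standard error as bars, for the 10 kinases under 4 settings. PRPF4B, CLK4 and CLK1 are highest with all 6 arrays and lie at 0.70, 0.62 and 0.60 with replicates 2 and 3 alone.

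The promoters of the 3 members with the largest differences are shown, a choice made after the values were seen. Each is the 250 bases before the transcription start in RefSeq (GRCh38.p14), read 5′ to 3′ along the gene. Capitals mark the GC box, GGGCGG on either strand, which reads CCGCCC where it lies on the opposite strand.
CLK1 promoter, chr2:200864659-200864908, minus strand: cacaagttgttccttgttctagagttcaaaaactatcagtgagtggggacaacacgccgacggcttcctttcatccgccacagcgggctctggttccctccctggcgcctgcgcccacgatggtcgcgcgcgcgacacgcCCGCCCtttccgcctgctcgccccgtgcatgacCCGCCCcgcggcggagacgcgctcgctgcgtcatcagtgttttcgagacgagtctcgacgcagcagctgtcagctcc
CLK4 promoter, chr5:178627051-178627300, minus strand: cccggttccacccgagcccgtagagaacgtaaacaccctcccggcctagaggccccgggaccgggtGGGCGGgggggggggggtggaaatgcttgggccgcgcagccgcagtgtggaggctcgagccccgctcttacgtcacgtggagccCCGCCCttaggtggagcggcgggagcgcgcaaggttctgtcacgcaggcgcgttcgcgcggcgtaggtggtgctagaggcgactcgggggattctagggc
PRPF4B promoter, chr6:4021050-4021299, plus strand: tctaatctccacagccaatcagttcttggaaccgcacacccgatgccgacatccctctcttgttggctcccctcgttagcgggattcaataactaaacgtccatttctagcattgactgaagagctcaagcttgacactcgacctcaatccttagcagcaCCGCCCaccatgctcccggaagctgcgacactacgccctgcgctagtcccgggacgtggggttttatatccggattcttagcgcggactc

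CLK1 had its GC boxes at -110 and -77 from the start (first base), CLK4 at -184 and -100, and PRPF4B a single one at -90. All 10 members were matched to a promoter, and 7 of them held a GC box, against 42.3% of 27305 promoters of that length. The E-box CACGTG was in 3 members (CLK2, CLK4 and DYRK1B), against 6.49%, and CCAAT in 4, against 33%. TATAAA was in 2 members (11.1% of all), TGACNNNGC in 3 (11%), CCGGAAG in 1 (8.82%), and TGACGTCA (1.77%) and GAANNTTC (5.85%) in 0. Both strands were searched, and no matches of different motifs overlapped in a member. These are matches of letters only, and the 3 genes with the largest differences shared no motif but the GC box, which CLK2, SRPK1, DYRK1B and TOP1 also held.

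The genes that these kinases serve or resemble were set beside them, as lists chosen with earlier results of these data known. Of 14 SR proteins, all 14 lay above the median of all genes and 0 passed the threshold, with a median difference of 0.55. SRSF11 had gene levels of 7.06, 5.47 and 5.62 on the amiloride arrays, against 5.52, 4.45 and 5.01 on the control arrays, and SRSF5 had a difference of 0.79. Among 14 other proteins with arginine-serine domains (median 0.76, 13 above, 0 past the threshold), RBM39, a splicing coactivator, differed by 1.12 and U2AF2, which binds the polypyrimidine tract, by 1.01. TNPO3, the transportin that imports SR proteins, differed by 0.77. The median over the kinases was thus 0.90 beside 0.55 for their SR protein substrates, a contrast that was not tested.

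Phosphatases that act on SR proteins and the spliceosome stood close to the kinases, with a median difference of 0.76, as had the other proteins with arginine-serine domains. All 9 lay above the median of all genes, and 8 were higher in all 3 pairs, against 26.4% of all genes. Higher without overlap were 5 (PPP1CA, PPP1CC, PPP1R8, PPP2CA and PPP2CB), against 6.68% of all genes, although 0 passed the threshold. In the other lists these were 0 of 14 SR proteins, 0 of 14 other arginine-serine proteins, 1 of 13 CMGC kinases and 1 of 6 topoisomerases. Higher in all 3 pairs were 7, 10, 7 and 4 of them. PPP2CA, a catalytic subunit of protein phosphatase 2A, had gene levels of 8.77, 7.82 and 7.84 on the amiloride arrays, against 7.25, 6.36 and 6.12 on the control arrays. Its difference of 1.56 was nearly equal in the pairs, at 1.52, 1.46 and 1.72 (limma with the replicate block, unadjusted p = 0.000262, adjusted p = 0.15). PPP1R8 (NIPP1), which targets protein phosphatase 1 to the spliceosome, differed by 1.09. With replicates 2 and 3 alone PPP2CA and PPP1R8 passed the threshold (limma, adjusted p = 0.00407 and 0.0278), a setting in which 1.57% of all genes did.

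Other kinases of the same superfamily and other topoisomerases stood lower. The median was 0.38 over 13 kinases of the CMGC group (10 above the median of all genes, 0 past the threshold), in which HIPK3, a homeodomain-interacting kinase, differed by 1.15 and DYRK4 by 0.97. DYRK4 passed with replicates 2 and 3 alone, at 4.59 and 4.95 on the amiloride arrays, against 3.07 and 3.84 on the control arrays (limma, adjusted p = 0.0328). SRPK3, the muscle SRPK, differed by -0.38. Over 6 topoisomerases and related repair enzymes it was 0.45, with 5 above the median. TDP2, which removes topoisomerase adducts from DNA ends, had 7.47, 6.94 and 7.58 on the amiloride arrays, against 6.01, 6.40 and 6.41 on the control arrays, and TOP3A differed by 0.89. TOP2A, a marker of dividing cells, ran the other way in replicates 2 and 3, with 5.45 and 5.84 on the amiloride arrays, against 6.70 and 7.34 on the control arrays (limma on these arrays alone, adjusted p = 0.0231), but was higher by 0.75 in replicate 1. Without amiloride replicate 1, where the median of all genes was -0.38, the medians were -0.0085 for SR proteins, 0.17 for the other proteins with such domains, 0.47 for phosphatases, -0.13 for the CMGC kinases and 0.088 for the topoisomerases, beside 0.21 for the SR protein kinases. That of the phosphatases was 0.086 when the dim probe sets were chosen afresh on the 5 arrays.

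**Figure D3:**
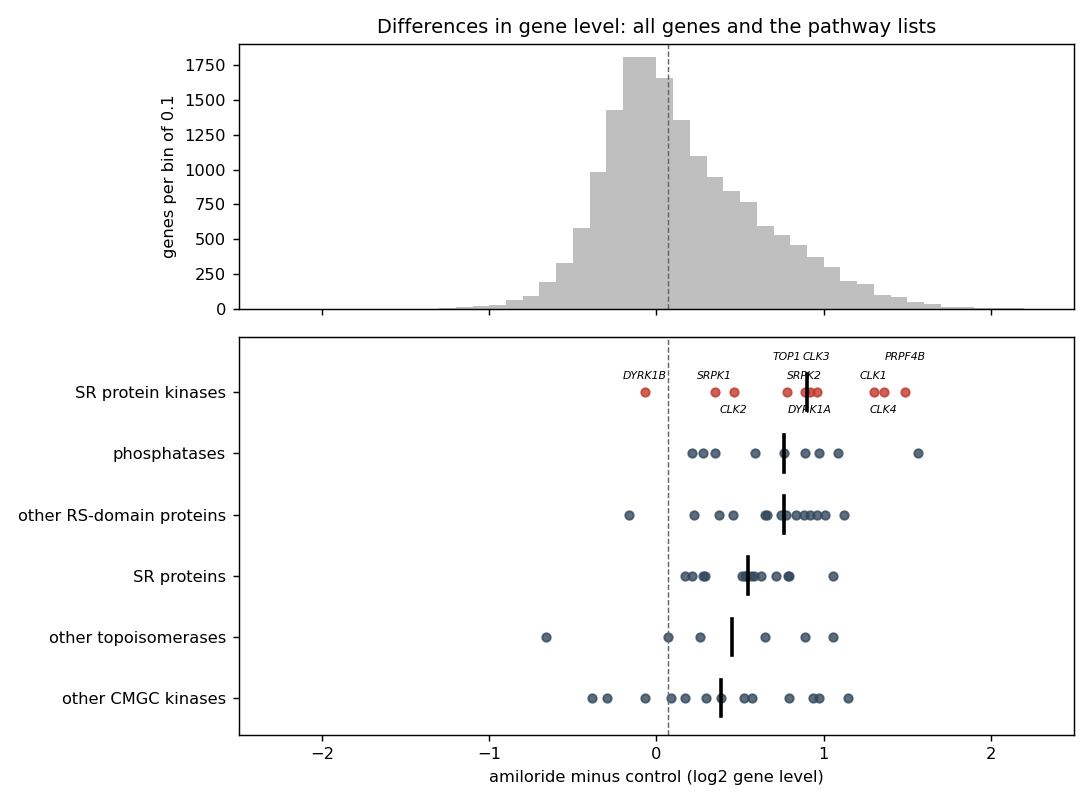
Differences in gene level, amiloride minus control (log2, horizontal axis). The upper panel counts all 17018 genes in bins of 0.1, without those beyond the axis, and the lower panel shows the 10 kinases (red, named) and 5 lists (blue), with black bars at list medians and the dashed line at the median of all genes, 0.07. List medians lie between 0.38 and 0.90.

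To look at exon use, the splicing index of each kept probe set was taken, its log2 value minus the level of its gene on the same array. Indices of same-number arrays still deviated together from their group means, at r of 0.138, 0.183 and 0.334. Among 269283 indices 0 passed the threshold in limma (0%), and so did 0 of the 241 of the kinases. At an unadjusted p under 0.05, 6 of the 241 were higher (1.85% of all) and 14 were lower (2.72%). Without overlap between groups were 14 higher (5.03%) and 19 lower (5.79%). The smallest p of the group belonged to lower indices in SRPK2 and CLK2, and 4 of these 14 lower indices were in SRPK2, 3 in CLK1, and 2 each in CLK3, CLK4 and PRPF4B, and 1 in CLK2.

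In SRPK2, probe set 3066316 had splicing indices of -1.93, -1.92 and -2.13 on the amiloride arrays, against -0.39, -0.72 and 0.03 on the control arrays. The groups were far apart and the amiloride values nearly equal, with a difference of -1.64 ± 0.30 (SE, limma, adjusted p = 0.947). Its own log2 values differed by -0.75 while the gene level differed by 0.89. In CLK2, probe set 2437359 behaved in the same way, with 1.76, 1.52 and 1.65 on the amiloride arrays, against 3.23, 3.20 and 2.69 on the control arrays. Its difference was -1.40 ± 0.29, with log2 values of 7.69, 6.09 and 6.54 on the amiloride arrays, against 9.04, 6.71 and 7.38 on the control arrays. On this probe set the amiloride array was lower in each pair, although the gene level of CLK2 was higher in each.

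CLK1 and CLK4 had the widest spread of index differences. The SD over the kept probe sets was 0.951 for CLK1 and 0.858 for CLK4, at percentiles 98.8 and 97.5 of 11147 genes with at least 10 kept, and at percentiles 92.2 and 92.3 without control replicate 1. CLK1 probe set 2594521 had indices of -1.49, 0.00 and -1.22 on the amiloride arrays, against 0.75, 0.58 and 0.58 on the control arrays, a difference of -1.54 ± 0.42. The neighbouring identifier 2594522 was lower without overlap as well, by 1.09 in size. CLK1 probe set 2594532 differed by -1.76, mostly through control replicate 1, which was at 3.08, against 1.40 and 0.77 on the other control arrays. Together with 2594521 it was one of the 2 kept CLK1 probe sets whose own log2 difference was below 0. Log2 values of 2594521 were 5.06, 4.37 and 4.13 on the amiloride arrays, against 4.59, 4.57 and 5.11 on the control arrays, whereas the other 13 of 15 had differences above 0, up to 2.52 in 2594506.

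CLK4 had indices that were lower and indices that were higher under amiloride. Probe set 2889723 had -3.26, -1.17 and -2.15 on the amiloride arrays, against 0.19, -0.69 and -0.58 on the control arrays, at low log2 values of 2.53 to 3.84. Probe set 2889732 had -1.09, 0.09 and -0.07 on the amiloride arrays, against 3.18, 0.30 and 1.43 on the control arrays. In the other direction 2889713 had 1.55, 0.57 and 1.37 on the amiloride arrays, against -0.34, 0.36 and 0.29 on the control arrays. The differences were -1.83, -1.99 and 1.06, each without overlap and each with an adjusted p of 0.947 in limma. Own log2 values of these probe sets differed by -0.47, -0.63 and 2.42, while the gene level of CLK4 differed by 1.36. Of the kept CLK4 probe sets 18 of 20 had log2 differences above 0, a share that was not counted over all probe sets.

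**Figure D4:**
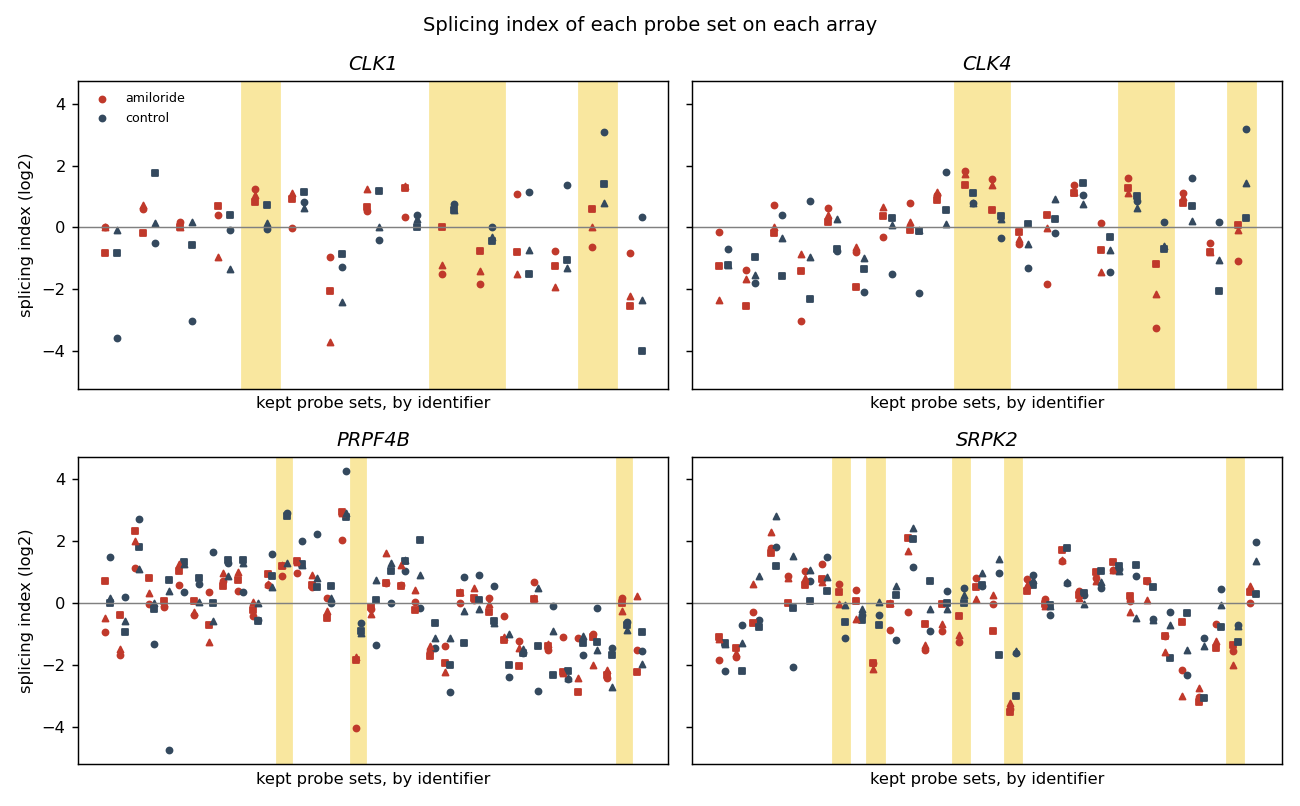
Splicing index (log2, vertical axis) of every kept probe set of CLK1, CLK4, PRPF4B and SRPK2, in order of identifier (horizontal axis), on the amiloride arrays (red) and control arrays (blue). Circles, squares and triangles are replicates 1, 2 and 3, and yellow bands mark probe sets whose groups do not overlap. The band in SRPK2 near an amiloride index of -2 is 3066316, where the groups are 1.64 apart.

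Single probe sets stood out in the other kinases too. CLK3 probe set 3601753 had indices of -0.19, 1.07 and 0.77 on the amiloride arrays, against 2.54, 1.79 and 1.99 on the control arrays. PRPF4B probe set 2892773 had -4.03, -1.85 and -1.74 on the amiloride arrays, against -0.63, -0.90 and -0.95 on the control arrays, and its log2 values did not exceed 4.13. Own log2 values differed by only -0.60 in 3601753 and -0.23 in 2892773. The gene levels taken off them differed by 0.96 (CLK3) and 1.49 (PRPF4B). The remaining extremes had overlapping groups or smaller differences, namely 0.88 at most in SRPK1 (2951704), 0.83 in DYRK1A (3920628) and 0.75 in DYRK1B (3862154). In PRPF4B probe set 2892789 (1.56) and TOP1 probe set 3885500 (1.29), the difference came from control replicates 1 and 2. For PRPF4B the amiloride arrays had 0.67, 0.14 and 0.16, against -2.85, -1.37 and 0.50 on the control arrays.

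On the log2 values of single probe sets, without reference to a gene level, 0 of 241 passed (0.0197% of 704143). These 704143 are all kept probe sets, with or without a gene symbol, and 269283 of them belong to the genes tested. Shares among those 269283 were not counted for log2 values. Higher without overlap were 47 of the 241, against 3.18% of all kept probe sets, and 0 were lower (0.563%). At an unadjusted p under 0.05, 30 were higher (0.983%) and 0 lower (0.652%). Every kept probe set of TOP1 and DYRK1A had a difference above 0 (27 of 27 and 25 of 25), as had 36 of 37 of PRPF4B, but only 6 of 18 of DYRK1B. The share of all kept probe sets above 0 was not counted, so these counts, like those of CLK1 and CLK4, have no background. Probe sets of one gene share its RNA and are not replicates.

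Probe sets left out as dim numbered 34, with 9 of them in CLK4 and 0 in DYRK1B and TOP1. Sequence shared with pseudogenes bears on CLK2 and TOP1, because related copies can add signal to a probe. The 10 probe sets given to both CLK2 and its pseudogene CLK2P had a median log2 difference of 0.25 with 0 of 10 free of overlap, and the 9 of CLK2P alone that passed the filter had 0.38, beside the gene-level difference of 0.46 for CLK2. The 4 probe sets of TOP1P1, a TOP1 pseudogene, that passed had a median of 0.71, beside 0.78 for TOP1. Their part in the levels of CLK2 and TOP1 was not tested. Copies of the other members were not looked for. The kept CLK3 probe sets 3200868 and 3200869 have identifiers far from the other CLK3 ones, and the annotation gives no positions.

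The study's criteria for exons were applied to all 275 probe sets, dim ones included, with means over replicates, under which index and log2 ratio must both be -1.585 or less and the mean profiles of the gene must correlate at 0.7 or more between groups. They were met by 0 of the 275, against 0.381% of 356353 probe sets. The nearest in PRPF4B and CLK4 had log2 ratios of -1.46 and -1.19. With the signs turned, 1 met them, against 0.229%. This was DYRK1A probe set 3920604, with log2 values of 5.30, 2.80 and 2.16 on the amiloride arrays, against 1.03, 0.00 and 0.00 on the control arrays, where 0.00 is the floor. Its mean lies under the filter used elsewhere, and its ratio depends on the floor. Without amiloride replicate 2, amiloride replicate 3 or control replicate 3, PRPF4B probe set 2892772 met the criteria (0.393%, 0.501% and 1% of all), and CLK4 probe set 2889702 did without control replicate 3, both of them under the filter as well. Mirrored, 4 met them without control replicate 2 (0.462%), 5 without control replicate 3 (0.812%, 3920604 not among them) and 0 without amiloride replicate 1 (0.191%).

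The pattern of PRPF4B over the 6 arrays, less each array's median gene level, was most like those of FOXP2, SBNO1, TRIM31, GPR108 and CYTIP among 17008 other genes (Pearson's r of 0.995 to 0.999 over 6 arrays). All share the high value of amiloride replicate 1. FOXP2, a transcription factor, had 7.93, 4.46 and 4.91 on the amiloride arrays, against 4.02, 3.75 and 3.94 on the control arrays.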

How the data were processed

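Exon arrays were read for 3 amiloride and 3 control cultures of Huh-7. The authors corrected bias inferred from background probes, normalized the arrays in dChip (dChip2010 in the series text, dChip2006 in the methods) and deposited a linear intensity for each probe set on each array. The processing notes name hg18. All 6 arrays were used as deposited, and 0 columns were left out. Since array medians differed, the number of arrays and their brightness limit the precision.

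The annotation gave 1 symbol for 357582 probe sets, several for 15322 and none for 1035381. Of 19560 symbols, 16472 were current, 2966 were updated and 122 were kept as they stood. It holds no exon numbers or positions. Intensities under 1 were set to 1 before log2, and probe sets with a mean log2 value under 2.796 were left out. Genes needed at least 3 kept probe sets. With arrays left out, gene levels kept these probe sets, a choice made after the values were seen, and the filter applied afresh is an alternative for them and the rule for splicing indices. Features were fitted with limma 3.58.1 under R 4.3.3 (lmFit, eBayes, two-sided, Benjamini-Hochberg over all features, threshold 0.05), and the fits were tested on simulated data. Prior degrees of freedom were infinite for genes and 3.5 for splicing indices.

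Same-number arrays deviated together from their group means, with r of 0.161, 0.194 and 0.317 over probe sets, 0.138, 0.183 and 0.334 over splicing indices and 0.184, 0.0868 and 0.278 over genes. The value of 0.0868 is under the 0.1 asked for, and the numbers were taken as pairs on the other values, so a blocked fit on that number was set beside the main one.

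All 10 members are named, with the probe sets of smallest p and of highest and lowest index difference of each, those past the study's criteria, the 2 genes of smallest p of each list, and the 5 most like the member of smallest p. Some probe sets and genes outside this rule are named as well, chosen after their values were seen. The members and lists were chosen with earlier results of these data known. No exact permutation test is given, because with 3 arrays a group its two-sided p is at least 0.1.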

Additional observations from a re-analysis of the deposited data

Results flagged for a closer look

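Outside the probe sets used for CLK1 lie 5 that the annotation gives to both CLK1 and its neighbour PPIL3, a cyclophilin of the spliceosome. In 3 of them the amiloride arrays lay above the control arrays without overlap, against 3.18% of all kept probe sets, with or without a gene symbol. All 5 are among those kept probe sets but entered no gene level or splicing index. Probe set 2594525 had log2 values of 8.31, 5.55 and 6.55 on the amiloride arrays, against 3.86, 4.82 and 4.54 on the control arrays, a difference of 2.4. The differences were 2.11 for 2594524 and 1.48 for 2594518. Over the 5 the median difference was 1.70, beside 1.30 for the gene level of CLK1, and RNA of the 2 genes cannot be told apart there.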

How the results depend on the processing

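Gene levels were computed under 23 settings, and 0 of the 10 kinases passed the threshold in any of them, with the lowest adjusted p at 0.126 (SRPK2, limma, quantile normalization with the replicate block, chosen after seeing the data). With the replicate block alone, 0 kinases, 0 list genes and 0 splicing indices passed, which changed no call among these, while over the whole array the 2 genes and 139 probe sets past the threshold without the block became 0 and 0. CLK1, CLK3, CLK4, SRPK2, DYRK1A, PRPF4B and TOP1 kept a difference above 0 throughout, but without amiloride replicate 1 it was 0.18 for CLK3, 0.19 for DYRK1A and 0.23 for TOP1. DYRK1B was at 0.017 after median centring, at 0.33 and 0.15 without amiloride replicates 2 and 3, and its leave-one-out range ran from -0.70 to 0.57. SRPK1 ran from -0.070 (without amiloride replicate 1) to 0.58, and CLK2 from -0.12 (without control replicate 2) to 1.03. When the dim probe sets were chosen afresh on the arrays used, CLK2 reached 1.22, and CLK1 fell short of its 0.60 with replicates 2 and 3, at 0.34. The index of CLK2 probe set 2437330 ran from -0.85 (without control replicate 1) to 0.94 (without control replicate 2) and was -0.87 with replicates 2 and 3 of both groups, with which that of SRPK1 probe set 2951725 was 0.036. The cause was not tested.

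Counts moved more. Members higher without overlap were 8 after quantile normalization (16.6% of all genes) and 9 after median centring (18.5%), 1 with mean gene levels (6.19%), 4 with replicates 2 and 3 (21%), or 6 with the filter afresh (21%), and 2 to 5 when 1 array was left out (6.81% to 20.9%). The 5 were reached without amiloride replicate 2 (15.1%), and 4 without control replicate 1 (20.9%), or 5 with the filter afresh (20.8%). Quantile normalization moved the median of all genes to 0.12 and centring moved it to 0.16. With replicates 2 and 3, 4 list genes passed (PPP2CA, PPP1R8, TOP2A and DYRK4), or 3 with the filter afresh (without DYRK4). The study's criteria were met by 0 to 2 member probe sets when 1 array was left out (2892772 of PRPF4B and 2889702 of CLK4, against 0.298% to 1% of all), and the mirrored ones by 0 to 5 (0.191% to 0.812%), by 0 with 16 added to each intensity (0.00926%) and by 2 with mean gene levels (0.244%). limma's diffSplice also called 0 of the 241, with 0 higher (0.284% of all) and 2 lower (0.668%) at an unadjusted p under 0.05. With 6 arrays of unlike brightness, differences near the standard error of 0.69 could not be resolved.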
